A study of Mus musculus with 6 samples.

Results

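The ubiquitin ligases Fbxo32, Trim63, Trim54, Trim55 and Asb2, which act in muscle protein breakdown, and the FoxO transcription factors Foxo1, Foxo3 and Foxo4 were examined in cardiac progenitor cells derived from adult mouse cardiomyocytes (CPC) and in adult mouse cardiomyocytes (Ctl). Members were taken by name, as every probe set whose gene symbol equalled 1 of these 8 symbols, whatever its values. The 8 genes themselves were chosen with earlier results of these data known. This gave 15 probe sets for 7 of the 8 genes, of 45037 probe sets and 20678 genes on the array. No probe set carried the symbol Trim55, so this gene was not measured here. Of the 7 genes measured, 3 had at least 1 probe set lower in CPC (Fbxo32, Trim63 and, by 2 of its 4 probe sets, Foxo3). None had any that was higher. Over all genes these shares were 6.53% and 1.53%.

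CPC 1, CPC 2 and CPC 3 were progenitor cells that, by the labels, came out of prolonged culture of adult cardiomyocytes from bi-transgenic mice after these had dedifferentiated and divided. Ctl 1, Ctl 2 and Ctl 3 were freshly isolated cardiomyocytes of adult bi-transgenic mice, so that both groups came from bi-transgenic animals. The labels do not say which line the arrays came from, which promoter drives its transgenes, how old the animals were beyond adult, or whether tamoxifen was given. Cells were captured singly in a microfluidic device and their cDNA was amplified before labelling. How many cells an array held, and whether arrays came from separate animals or cultures, is not stated, and p-values therefore measure only the spread between these arrays, which may be technical. Culture and cell state changed together between the groups and cannot be told apart. Where an array held more than 1 cell, fewer cells of a type and less RNA per cell cannot be told apart either. The comparison asks how cells grown out of dedifferentiated cardiomyocytes differ in expression from freshly isolated adult cardiomyocytes.

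Ubiquitin ligases choose the proteins that are tagged with ubiquitin for the proteasome. Fbxo32 (atrogin-1, also called MAFbx) is the substrate-binding F-box subunit of a cullin ligase, while Trim63, Trim55 and Trim54 (MuRF1, MuRF2 and MuRF3) are RING finger ligases that bind sarcomere proteins, and Asb2 is the substrate-binding subunit of another cullin ligase that targets filamins. In striated muscle, Fbxo32 and Trim63 are known for their rise during atrophy, where FoxO factors bind and activate their genes. Insulin and growth factor signalling through Akt phosphorylates FoxO factors, and Ywha adaptor proteins then hold them in the cytoplasm. Much of their control therefore lies in the protein, which arrays of RNA do not measure.

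Values are log2 RMA intensities, on which a difference of 1 is a 2-fold change, and array medians lay between 7.32 and 7.47. A level at or under 6.55, the highest lower quartile of the 6 arrays, was taken as background, and folds over a group with an array at background are written as "at least". All 9 cardiomyocyte markers examined, such as Myh6, Tnni3 and Actc1, were lower in CPC, with a mean marker level of 7.05 to 7.64 on the CPC arrays and of 13.54 to 13.64 on the Ctl arrays. Of 7 fibroblast markers 2 were higher in CPC (Col1a1 and Col1a2), with mean marker levels of 9.67 to 10.23 in CPC and 7.88 to 8.75 in Ctl. Each passed by 1 probe set, of 2 for Col1a1 and of 3 for Col1a2. The smallest difference among these was 0.11 for Col1a1 and 0.37 for Col1a2. Markers were read from the probe set with the highest mean, by which 4.47% of all genes were lower and 1.15% higher. Of 5 endothelial and 6 macrophage markers none passed the test, and 1 of 8 skeletal muscle markers (Ckm, which the heart expresses too) was lower. Of 6 smooth muscle and pericyte markers, 1 (Rgs5) was lower. Acta2, Tagln and Pdgfrb did not pass, with differences of 2.11, 2.46 and 0.83 and all CPC arrays above all Ctl arrays (limma adjusted p = 0.20, 0.16 and 0.19), and the median of the 6 was 0.51. Among the progenitor markers Kit, Ly6a and Isl1 none passed, and Kit lay at background on all 6 arrays. Ly6a differed by -1.59, with all CPC arrays below all Ctl arrays and CPC 1 at background (limma adjusted p = 0.12). Isl1 differed by -0.09, and its groups overlapped. The 3′ minus 5′ difference of the Actb control probe sets was 0.0022 to 0.37 in CPC and -0.85 to -0.41 in Ctl, without overlap (exact two-sided permutation test, p = 0.1, the smallest that 3 against 3 arrays allow). That of the Gapdh controls was 2.09 to 3.53 in CPC and 1.77 to 2.21 in Ctl, and the groups overlapped (exact two-sided permutation test, p = 0.3). Arrays of a group were less alike in CPC, with correlations of 0.792 to 0.857, than in Ctl, with 0.933 to 0.971. The marker levels, the Actb measure and the wider CPC spread thus differ between the same groups that are compared below, and their part in the results was not tested.

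Promoter sequence is shown for 4 members, because Trim63 and Foxo3 fell while Trim54 and Asb2 did not pass the test. Each stretch holds the 250 bases before a transcript start, from RefSeq (build GRCm38.p6), 5′ to 3′ on the strand of the gene. The table held such a window for 5 of the 8 genes, and no window is shown for Fbxo32, Foxo4, Trim55 or Foxo1. Both strands were searched for the FoxO element TGTTTAC, the MCAT element CATTCC, the MEF2 box and the CArG box, and matches are in capitals. Asb2 has 2 starts in the table, and the one with a match is shown.
Trim63, chr4:134314870-134315119, plus strand: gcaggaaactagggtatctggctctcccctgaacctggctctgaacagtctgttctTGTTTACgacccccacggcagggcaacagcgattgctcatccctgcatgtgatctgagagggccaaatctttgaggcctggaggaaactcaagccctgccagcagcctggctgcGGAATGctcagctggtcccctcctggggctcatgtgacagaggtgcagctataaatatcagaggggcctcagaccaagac
Foxo3, chr10:42276696-42276945, minus strand: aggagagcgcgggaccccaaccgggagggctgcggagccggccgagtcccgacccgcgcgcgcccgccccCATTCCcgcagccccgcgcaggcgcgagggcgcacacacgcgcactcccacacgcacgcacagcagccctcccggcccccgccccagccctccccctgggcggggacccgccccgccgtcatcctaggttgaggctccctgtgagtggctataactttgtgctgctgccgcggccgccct
Trim54, chr5:31116362-31116611, plus strand: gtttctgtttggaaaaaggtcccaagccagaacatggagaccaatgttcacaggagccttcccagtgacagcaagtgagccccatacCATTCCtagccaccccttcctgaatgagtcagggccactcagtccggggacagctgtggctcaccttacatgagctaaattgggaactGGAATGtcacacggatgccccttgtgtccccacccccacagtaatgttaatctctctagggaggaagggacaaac
Asb2, chr12:103356002-103356251, minus strand: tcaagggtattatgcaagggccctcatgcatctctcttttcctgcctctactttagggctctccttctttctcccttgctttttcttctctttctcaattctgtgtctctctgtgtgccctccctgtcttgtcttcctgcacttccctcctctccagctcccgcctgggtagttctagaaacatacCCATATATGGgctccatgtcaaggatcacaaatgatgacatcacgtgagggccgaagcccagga

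Trim63, a gene that FoxO factors are known to activate, was the only one of the 5 genes with the FoxO element in its window, 194 to 188 bases before its start, and it also held an MCAT element 80 to 75 bases before it, read on the other strand. Trim54 held MCAT elements 163 to 158 and 75 to 70 bases before its start and Foxo3 1 at 180 to 175 bases, while Asb2 held a CArG box 64 to 55 bases before its start. No match overlapped another. Of 32851 windows of 250 bases in the table, 3.17% held the FoxO element, 12.6% the MCAT element, 2.92% the MEF2 box and 1.47% the CArG box. A match is a run of letters and not a measured binding site.

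Of the 15 member probe sets, 6 were lower in CPC at an adjusted p under 0.05 and 0 were higher (limma with Benjamini-Hochberg adjustment over all 45037 probe sets). At an unadjusted p under 0.05, 8 were lower and 0 higher, against 10.7% and 9.69% of all probe sets, and without variance moderation 1 was higher at that unadjusted level, while with array weights 1 was higher after adjustment. At the adjusted threshold, 4.38% of all probe sets were lower and 1.06% were higher. By gene, 3 of 7 members had at least 1 lower probe set, against 6.53% of all genes, and 0 had a higher one, against 1.53%. All 3 CPC arrays lay below all 3 Ctl arrays for 8 member probe sets and above them for 1, against 11.8% and 19.7% of all probe sets. The median difference of the members was -0.82, against 0.15 over all probe sets.

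**Figure D1:**
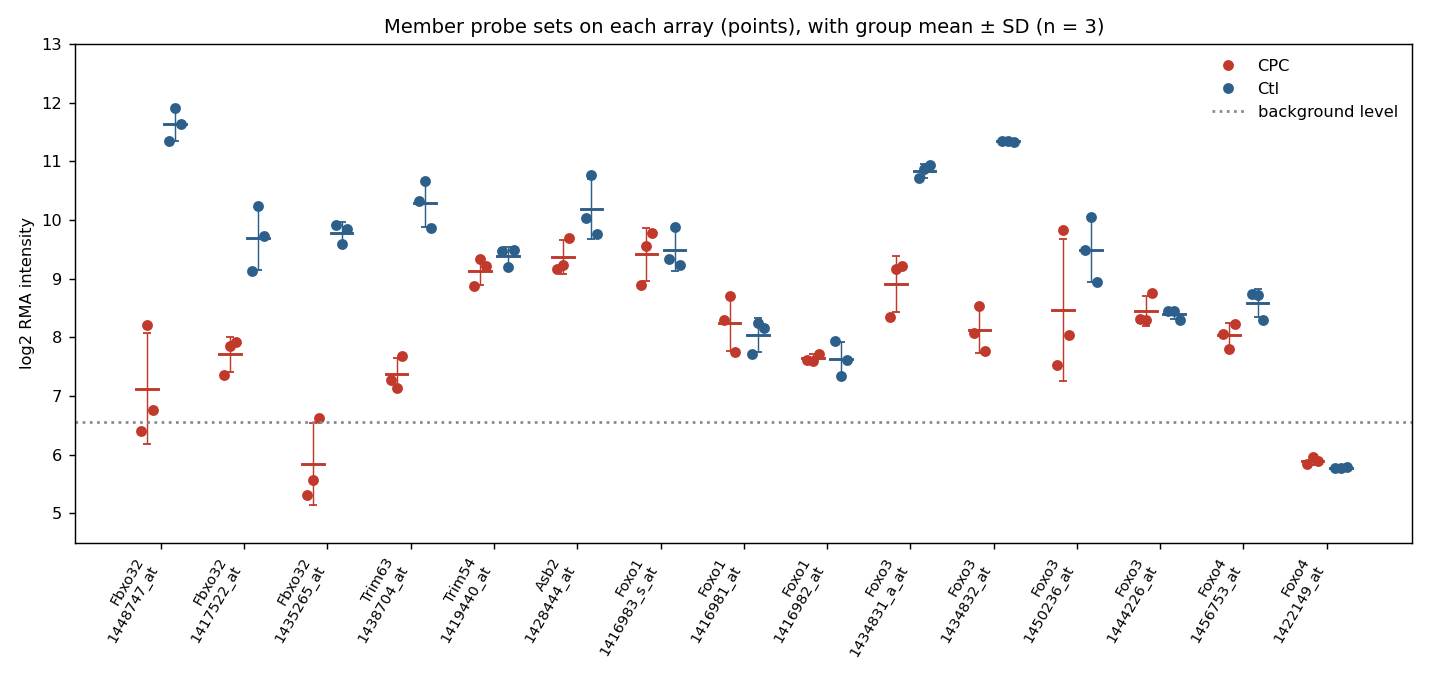
Log2 RMA intensity (vertical axis) of the 15 member probe sets (horizontal axis) on each CPC array (red, left) and each Ctl array (blue, right), with the group mean as a bar and the SD as whiskers (n = 3), and the background level of 6.55 dotted. The CPC points of Fbxo32, Trim63 and of the 1434831_a_at and 1434832_at probe sets of Foxo3 lie below their Ctl points, while those of Foxo1 and Trim54 overlap.

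Fbxo32 was lower in CPC by all 3 of its probe sets. The probe set 1448747_at read 6.41, 8.20 and 6.76 in CPC 1, CPC 2 and CPC 3, against 11.35, 11.91 and 11.63 in Ctl 1, Ctl 2 and Ctl 3. The lowest Ctl array thus exceeded the highest CPC array, CPC 1 lay at background, and CPC 2 stood above the other two CPC arrays. The group means were 7.12 ± 0.95 in CPC and 11.63 ± 0.28 in Ctl (SD, n = 3 each), at least 22.8-fold lower in CPC. The log2 difference was -4.51 (SE 0.48, 95% interval -5.68 to -3.34, limma adjusted p = 0.0047), which ranked 175 among the falls of all probe sets.

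The second probe set, 1435265_at, read 5.32, 5.57 and 6.63 in CPC, against 9.92, 9.58 and 9.84 in Ctl. CPC 1 and CPC 2 were at background, so its fold of at least 9.38 is a bound (log2 difference -3.94, SE 0.36, limma adjusted p = 0.0027). The third, 1417522_at, stayed above background, with 7.36, 7.84 and 7.92 in CPC, against 9.12, 10.24 and 9.73 in Ctl. Its groups did not overlap either, and its fall was smaller, 3.96-fold (log2 difference -1.99, SE 0.32, limma adjusted p = 0.022). This last call was lost without CPC 1 (adjusted p = 0.051), CPC 2 (0.051) or Ctl 3 (0.097). Over the mean of the 3 probe sets, Fbxo32 differed by -3.48 (limma adjusted p = 0.00048).

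Trim63, whose product ubiquitinates troponin I and myosin heavy chains, had 1 probe set, 1438704_at. It read 7.28, 7.14 and 7.69 in CPC, against 10.32, 10.67 and 9.87 in Ctl. Every CPC array lay near the median of its array and every Ctl array well above it. The means were 7.37 ± 0.29 in CPC and 10.28 ± 0.40 in Ctl (SD, n = 3 each), a 7.55-fold lower level in CPC (log2 difference -2.92, SE 0.27, 95% interval -3.56 to -2.27, limma adjusted p = 0.0027). This call was kept under each alternative run.

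Trim54, the family member known to stabilise microtubules in cardiomyocytes, read 8.87, 9.33 and 9.21 in CPC, against 9.47, 9.20 and 9.49 in Ctl (1419440_at). The groups overlapped, with CPC 2 above Ctl 2. The difference was -0.25 (SE 0.19, 95% interval -0.71 to 0.21, limma adjusted p = 0.46), an interval that leaves out a fall as large as that of Trim63. Within arrays, the level of Trim63 minus that of Trim54 differed between CPC and Ctl by -2.67, without overlap (exact two-sided permutation test, p = 0.1, the smallest possible). This pair was chosen after its values were seen, as were 6 others, and no adjusted p of the 7 was under 0.117.

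Asb2, known for its rise in differentiating muscle cells, read 9.17, 9.23 and 9.70 in CPC, against 10.03, 10.76 and 9.77 in Ctl (1428444_at). All CPC arrays lay below all Ctl arrays, but CPC 3 and Ctl 3 were only narrowly apart. The difference of -0.82 did not pass (SE 0.31, 95% interval -1.56 to -0.07, limma adjusted p = 0.21, unadjusted p = 0.036). It passed when arrays were weighted by their spread, at -0.85 (adjusted p = 0.02).

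**Figure D2:**
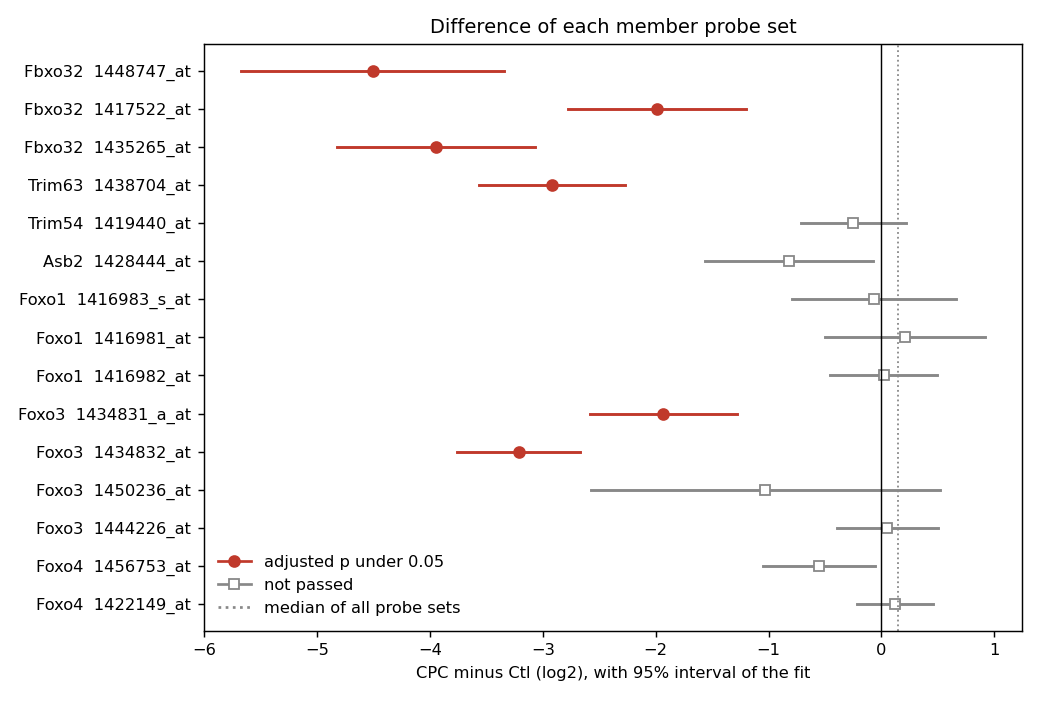
CPC minus Ctl difference on the log2 scale (horizontal axis) with its 95% interval for each member probe set (rows), red circles where the adjusted p was under 0.05 and open squares where not, beside the median of all probe sets (dotted, 0.15). The 3 probe sets of Fbxo32, that of Trim63 and 2 of the 4 of Foxo3 lie between -4.51 and -1.93, and the 9 others between -1.03 and 0.21.

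Of the 3 FoxO genes, only Foxo3 had probe sets that passed as reported. Foxo3, a factor known to activate autophagy and atrophy genes in muscle, was lower in CPC by 2 of its 4 probe sets. The probe set 1434832_at read 8.08, 8.53 and 7.77 in CPC, against 11.34, 11.35 and 11.33 in Ctl. The Ctl arrays spanned only 0.021, and the groups stood apart by more than the whole CPC range. The difference was -3.21 (SE 0.22, 95% interval -3.76 to -2.67, limma adjusted p = 0.00094), a 9.27-fold lower level in CPC, and this call was kept under each alternative run.

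The probe set 1434831_a_at of Foxo3 read 8.35, 9.16 and 9.22 in CPC, against 10.71, 10.87 and 10.94 in Ctl. It fell less, 3.82-fold (log2 difference -1.93, SE 0.27, limma adjusted p = 0.012), with CPC 1 lowest. The call was lost without Ctl 1 (adjusted p = 0.052) or Ctl 3 (0.064). The other two probe sets of Foxo3 did not pass. One of them, 1450236_at, read 7.52, 9.84 and 8.04 in CPC, against 9.48, 10.05 and 8.95 in Ctl, where CPC 2 lay inside the Ctl range and gave the wide interval of -2.57 to 0.52 around -1.03 (limma adjusted p = 0.39). The other, 1444226_at, read 8.31, 8.29 and 8.75 in CPC, against 8.46, 8.44 and 8.29 in Ctl, a difference of 0.05 (95% interval -0.40 to 0.50, limma adjusted p = 0.87). Over the mean of the 4 probe sets Foxo3 differed by -1.53 (limma adjusted p = 0.013). Where the probe sets lie in the transcripts was not assigned, so which Foxo3 transcript each one reads stays unnamed.

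Foxo1, the FoxO factor known for its part in insulin-controlled metabolism, was read by 3 probe sets, and each overlapped between the groups. The brightest, 1416983_s_at, read 8.90, 9.56 and 9.78 in CPC, against 9.34, 9.88 and 9.22 in Ctl, a difference of -0.07 (95% interval -0.80 to 0.66, limma adjusted p = 0.90). The probe set 1416981_at read 8.30, 8.70 and 7.75 in CPC, against 7.71, 8.24 and 8.16 in Ctl, where the difference was 0.21 (95% interval -0.50 to 0.92, limma adjusted p = 0.67). The probe set 1416982_at read 7.62, 7.59 and 7.72 in CPC, against 7.93, 7.34 and 7.60 in Ctl, a difference of 0.02 (95% interval -0.46 to 0.50, limma adjusted p = 0.96). With array weights the direction of 1416983_s_at and of 1416982_at turned, to 0.13 and -0.16, and 1416981_at passed at 0.74 (adjusted p = 0.029).

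Foxo4 was read by 1456753_at at 8.06, 7.80 and 8.23 in CPC, against 8.73, 8.72 and 8.30 in Ctl. CPC lay below Ctl on every array, with CPC 3 and Ctl 3 close together, and the difference of -0.55 did not pass (SE 0.20, 95% interval -1.05 to -0.06, limma adjusted p = 0.21). With array weights it passed at -0.80 (adjusted p = 0.008). The other probe set, 1422149_at, lay at background on all 6 arrays, with 5.83, 5.96 and 5.88 in CPC, against 5.76, 5.77 and 5.79 in Ctl. It was the member probe set whose CPC arrays all exceeded the Ctl arrays, by 0.12 (limma adjusted p = 0.62), and its levels give no measure of the gene.

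Within arrays, the Foxo3 probe set 1434832_at minus Foxo1 1416983_s_at differed between CPC and Ctl by -3.14, and minus Foxo4 1456753_at by -2.66. The groups did not overlap in either contrast (exact two-sided permutation test, p = 0.1 each, the smallest possible, adjusted p = 0.117 over 7 contrasts). Foxo3 1434832_at also fell more than the 1444226_at probe set of the same gene, by -3.27 (exact two-sided permutation test, p = 0.1), so that the probe sets of Foxo3 differed among themselves about as much as Foxo3 did from its relatives. The 3 pairs were chosen after their values were seen.

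**Figure D3:**
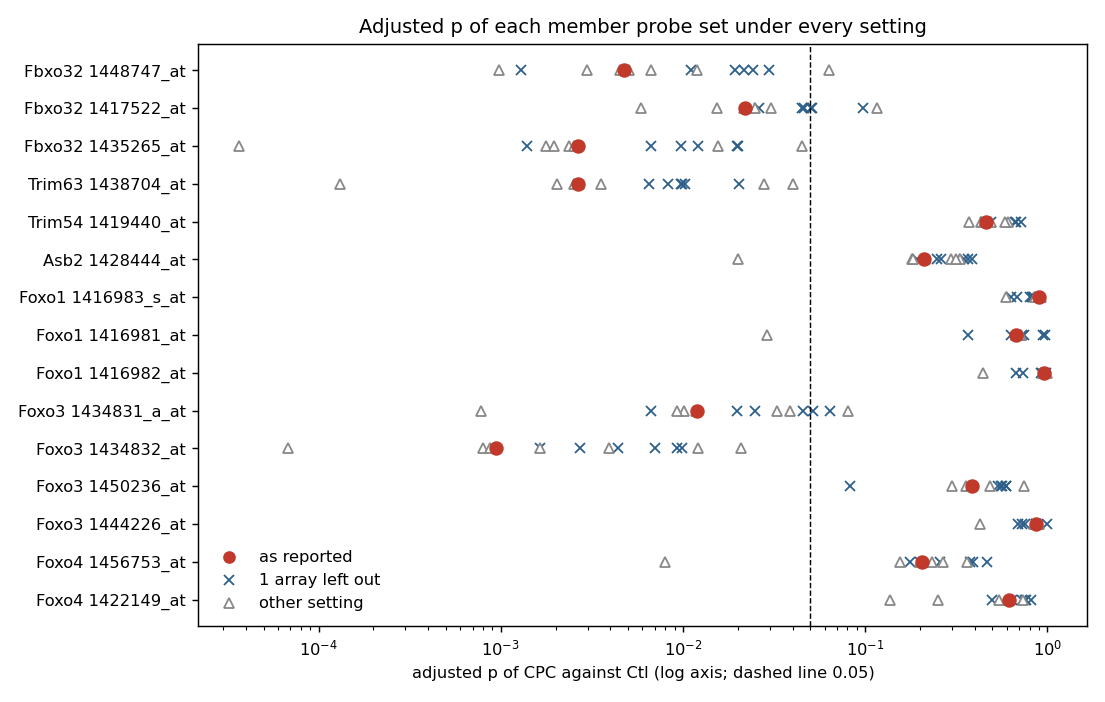
Adjusted p of CPC against Ctl (horizontal log axis) for each member probe set (rows) as reported (red circle), with 1 array left out (blue crosses) and under other settings (open triangles), with the threshold of 0.05 dashed. Trim63 1438704_at, Fbxo32 1435265_at and Foxo3 1434832_at stay left of the line throughout, while Asb2, Foxo1 1416981_at and Foxo4 1456753_at each have 1 setting, array weights, on that side.

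Beyond the members, 116 of 121 listed genes of the same pathways were measured, each read from its brightest probe set. In CPC 24 of them were lower and 5 higher, where 4.47% and 1.15% of all genes were, and their median difference was -0.23, against 0.19 for all genes. At an unadjusted p under 0.05, 10.2% of all genes were lower and 11% higher, shares that the unadjusted counts of the lists below stand against. Of the 29 calls, 18 were kept when any 1 array was left out.

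Among 19 genes that encode sarcomere proteins and other substrates or partners of these ligases, 9 were lower and 2 higher in CPC, with a median of -0.75. The largest falls were those of Tnni3 (cardiac troponin I, log2 difference -7.03, SE 0.30, limma adjusted p = 0.00023), Myh6 (alpha myosin heavy chain, -6.92, SE 0.40, adjusted p = 0.00052) and Myl2 (ventricular regulatory light chain, -6.74, SE 0.31, adjusted p = 0.00026). The 9 that fell were cardiomyocyte structural genes or Ckm, the muscle creatine kinase, and 4 of them are also among the cardiomyocyte markers above. The call of Ckm was lost without any one CPC array, Ctl 1 or Ctl 2 (adjusted p between 0.064 and 0.149). Eif3f, a translation initiation subunit known as a substrate of Fbxo32, read 12.71, 12.78 and 12.56 in CPC, against 10.36, 10.72 and 10.46 in Ctl, and rose by 2.17 (SE 0.17, limma adjusted p = 0.0013). Sqstm1, an autophagy adaptor that binds MuRF proteins, was higher by 2.15 (SE 0.43, adjusted p = 0.046), a call that was lost without CPC 1, CPC 2 or any Ctl array (adjusted p between 0.0848 and 0.176). Its 2 probe sets averaged a difference of 0.52.

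Of 27 other ubiquitin ligases studied in muscle, 3 were lower in CPC and 0 higher by limma, and the median was -0.22. Before adjustment, 5 were lower and again 0 higher at p under 0.05. By any probe set of a gene, Nedd4l and Wwp1 were lower too and Smurf2 was higher, in all 5 lower and 1 higher of 27, against 6.53% and 1.53% of all genes. Wwp1 was lower by 2 of its 3 probe sets. Nedd4l was lower by 1 of 6, while its brightest differed by 0.72, and Smurf2 was higher by 1 of 3, while its brightest differed by -0.02. Klhl41, a kelch adaptor of sarcomere assembly, read 6.26, 5.95 and 6.41 in CPC, against 10.61, 10.76 and 10.10 in Ctl, at least 15.3-fold lower (limma adjusted p = 0.00044). Fbxw7, the F-box subunit that binds phosphorylated cyclin E and Myc, fell by 3.16 (SE 0.22, limma adjusted p = 0.00095). Rnf207, a RING finger protein tied to cardiac repolarisation, fell by 2.75 (SE 0.30, adjusted p = 0.0053) by 1 of its 2 probe sets, while the other differed by 0.11. Of the 9 cullin ligase core partners measured, 0 passed by limma in either direction (before adjustment, 2 were higher and 1 was lower at p under 0.05), and their median was 0.0019. This holds for the brightest probe sets: 2 of 5 probe sets of the scaffold Cul3 were lower, down to -2.40, while its brightest differed by 1.69, and 1 of 3 of Cul5, the scaffold that Asb2 joins, was lower. Elob, an elongin subunit of the cullin ligase that Asb2 belongs to, had the smallest p among them, at a difference of 1.27 (limma adjusted p = 0.082).

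Asb2 belongs to a family of ankyrin repeat proteins with a SOCS box. Of its 17 relatives measured, 3 were lower and 0 higher in CPC by limma (before adjustment 6 and 2 at p under 0.05), and the median was 0.014. Asb10 was lower by the dimmer of its 2 probe sets (-2.76). Asb15 read 6.07, 6.46 and 7.35 in CPC, against 11.19, 11.01 and 11.09 in Ctl, at least 22.1-fold lower (limma adjusted p = 0.0012). Asb14 fell by 3.76 (SE 0.22, limma adjusted p = 0.00057) and Asb11 by 2.90 (SE 0.32, adjusted p = 0.0053). Each of these 3 relatives had a larger difference than the -0.82 of Asb2, which did not pass. Another relative, Asb5, differed by 2.80 the other way but did not pass (limma adjusted p = 0.13). Its CPC arrays all lay above its Ctl arrays, which were all at background. The gap to Asb2 itself was not tested.

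Of 21 genes known as FoxO targets, 6 were lower and 2 higher in CPC, with a median of -0.57. Pdk4, a kinase that shuts off pyruvate dehydrogenase, read 7.59, 9.61 and 6.51 in CPC, against 13.10, 12.87 and 13.20 in Ctl, at least 35.7-fold lower (limma adjusted p = 0.014). It lost its call without Ctl 1 (adjusted p = 0.064) or Ctl 3 (0.069). Cat (catalase) fell by 3.73 (SE 0.68, limma adjusted p = 0.032), with CPC 3 at background, and lost its call without any one of the Ctl arrays. Sesn1, a stress-induced inhibitor of growth signalling, fell by 3.06 (SE 0.21, adjusted p = 0.00089). Ctsl, a lysosomal protease, rose by 1.18 and Gabarapl1, an autophagosome protein, by 1.16 (limma adjusted p = 0.04 and 0.037). Ctsl lost its call without CPC 2 or any one Ctl array, and Gabarapl1 without CPC 2, CPC 3 or any one Ctl array. Each was higher by 1 of its 2 probe sets, while the other differed by 0.37 for Ctsl and 0.87 for Gabarapl1. Over the mean of its probe sets, Ctsl differed by 0.77 and did not pass (limma adjusted p = 0.070). Gabarapl1 differed by 1.01 over that mean (limma adjusted p = 0.041). Map1lc3b, another autophagosome gene of the list, and 12 more genes did not pass by their brightest probe set, though Cdkn1b and Txnip were lower by another.

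Of 25 genes that act on FoxO factors, 3 were lower and 1 higher in CPC, with a median of -0.22. Prkaa2, a catalytic subunit of AMP-activated kinase, read 6.18, 5.74 and 6.82 in CPC, against 10.57, 11.18 and 10.84 in Ctl, at least 19.8-fold lower (limma adjusted p = 0.00091). Pik3r1, the regulatory subunit of phosphoinositide kinase, fell by 3.09 (SE 0.58, limma adjusted p = 0.035) and Insr, the insulin receptor, by 2.38 (SE 0.43, adjusted p = 0.031). Pik3r1 and Insr both lost their calls without CPC 2 or any one Ctl array, and Insr also without CPC 3. Ywhaz, an adaptor that holds phosphorylated FoxO proteins, was higher by 1.82 (SE 0.33, adjusted p = 0.031). It lost its call without CPC 2 or any one Ctl array and differed by 0.10 over the mean of its 5 probe sets. Pik3ca was lower by a probe set other than its brightest.

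**Figure D4:**
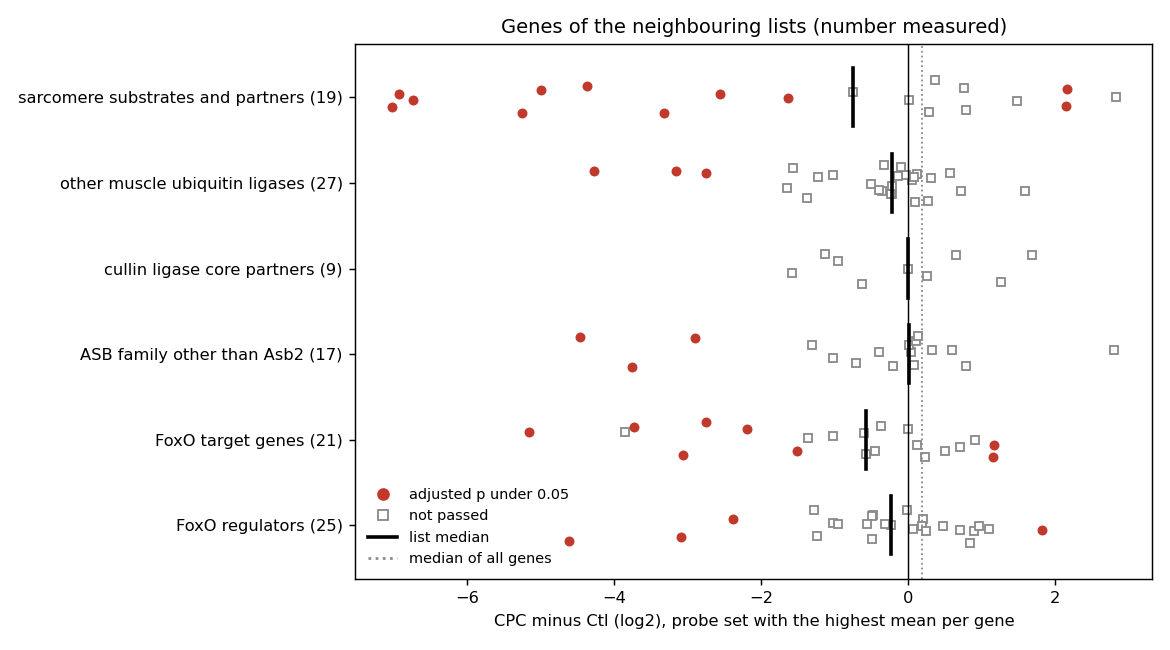
CPC minus Ctl difference on the log2 scale (horizontal axis) for each measured gene of the 6 lists (rows, number measured in brackets), red circles where the adjusted p was under 0.05 and open squares where not, with each list's median as a black bar and the median of all genes (0.19) dotted. The list medians lie between -0.75 and 0.014, and the cullin core row holds no red circle.

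Over the 6 arrays, the genes whose levels ran most like Fbxo32 (1448747_at) were Phkg1, Pmm2 and Dlst, with Pearson r of 0.998, 0.998 and 0.997 among 10338 genes above the median level. Those most like Trim63 were Pgm5, Coq10a and Macrod1 (r of 0.998, 0.997 and 0.997), and those most like Foxo3 (1434831_a_at) were Limch1, Wdr13 and Tmem69 (r of 0.996, 0.995 and 0.995). The 6 arrays form 2 groups, and 679 genes reached an r over 0.9 with Fbxo32, 782 with Trim63 and 630 with Foxo3. Trim54 and Foxo1, whose groups overlapped, had 24 and 49 such genes. Trim54 ran most like Sepsecs, Aasdh and D9Ertd26e and Foxo1 most like D5Ertd683e, Lrg1 and Ap4e1. Asb2 had 202, led by Slc26a2, Ankrd46 and Pdhx, and Foxo4 had 120, led by Cystm1, Aqp6 and AI426330. These correlations describe 6 points that share the group split and carry no p.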

How the data were processed

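RNA of 3 CPC and 3 Ctl samples was measured on Affymetrix whole-genome mouse arrays, 1 array a sample. The authors deposited log2 intensities made with RMA (background correction, quantile normalisation, probe set summary); Partek is also named, without versions. The authors also deposited fold changes and p-values of their own comparison, which were not used. No genome build, batch or detection call came with the values. RMA scales all arrays to 1 distribution, so differences are relative to the other genes, and arrays have no read depth: their number limits the precision.

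After 64 control probe sets were left out, 45037 were fitted in R 4.3.3 with limma 3.58.1 (lmFit, eBayes, CPC minus Ctl, two-sided, Benjamini-Hochberg, threshold 0.05). Single-gene probe sets numbered 38016, with 3174 symbols updated. Listed genes were read from their probe set with the highest mean. All member probe sets are named, and from other lists the 3 largest passing changes in each direction, or the smallest p where none passed. Other names were picked with their values in view. The members and lists were chosen with earlier results of these data known. The fit was tested on simulated data. Same-numbered CPC and Ctl arrays did not deviate together. Alternatives were median centring, a filter on dim probe sets, array weights, other variance models, a replicate block, a stricter threshold, probe set choice and leaving out each array.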

Additional observations from a re-analysis of the deposited data

How the results depend on the processing

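Against 6 member probe sets lower in CPC and 0 higher, 8 were lower and 1 higher with array weights, 3 were lower without moderation, and 4 to 6 when 1 array was left out. Lower member genes numbered 3 under the other settings and 5 with array weights, where 1 was higher. Of the listed genes, 24 were lower and 5 higher as reported. Array weights gave 40 and 20, the fit without moderation 13 and 1. Higher genes numbered 1 under an adjusted p of 0.01 and with an intensity trend, 3 over the mean of a gene's probe sets, and 1 (without CPC 2, Ctl 1 or Ctl 3) to 8 (without CPC 3) with 1 array left out, where lower genes numbered 18 to 26. The array numbers did not pair the arrays (correlations of same-numbered deviations -0.047, -0.013 and -0.108), and the fit with a replicate block gave 6 member probe sets lower, 0 higher, and 19 listed genes lower and 2 higher. Without moderation Fbxo32 1448747_at (adjusted p = 0.063) and 1417522_at (0.116) and Foxo3 1434831_a_at (0.080) missed the threshold. Under an adjusted p of 0.01, 4 member probe sets passed.

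Directions turned only among probe sets that had not passed. With array weights, Foxo1 1416983_s_at gave 0.13 and 1416982_at -0.16, and Foxo3 1450236_at gave 0.20 and 1444226_at -0.11. With 1 array left out, the range was -0.25 to 0.19 for Foxo1 1416983_s_at, -0.018 to 0.46 for 1416981_at, -0.13 to 0.17 for 1416982_at, and -0.097 to 0.14 for Foxo3 1444226_at. The cause of these changes was not tested. Levels at background, as for Foxo4 1422149_at and part of the Fbxo32 readings in CPC, limit what the folds can say.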
